A study of Mus musculus with 9 samples.

Results

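The PI3-kinase subunits examined here are 8 genes of the phosphoinositide 3-kinase family, Pik3ca, Pik3cb, Pik3cd, Pik3cg, Pik3r1, Pik3r2, Pik3r5 and Pik3c2a. They were measured by 24 probe sets of the 45037 tested, or 8 of the 18193 genes that have a probe set with a single gene symbol. The members are every probe set annotated to one of these symbols alone. The group was chosen by the array signals of Pik3cg, which were higher in Ring1b_KD than in Control, so the members' values in that comparison, and those of Pik3cg between the knockdowns, are given as a description with no test. Pik3ca and Pik3cd had 6 probe sets each, Pik3r1 had 4, Pik3c2a had 3, Pik3cg had 2, and Pik3cb, Pik3r2 and Pik3r5 had 1 each. Probe sets of 1 gene share their target and are not independent replicates.

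RNA of L8057 cells, a mouse megakaryocytic leukaemia line, was measured on 9 one-colour arrays. The 3 groups of 3 arrays were CBFb_KD, with a short hairpin against CBFb, Ring1b_KD, with a short hairpin against Ring1b, and Control, with the empty vector. Every group, Control included, received lentivirus. At 48 h after infection all cultures were given puromycin together with TPA at 50 nM, a phorbol ester that drives maturation of these cells, and they were harvested 72 h after that. The empty vector carries no hairpin, so an effect of any hairpin cannot be told apart from an effect of the knockdown in comparisons with Control. The number of hairpins and of clones is not given in the sources used here. The design calls the arrays biological triplicates, but whether each came from its own infection is not stated, and p-values therefore reflect the spread among these arrays only, which may be technical. All levels below are log2 signals after quantile normalization, all differences are log2 fold changes, and a probe set passed when its limma p, adjusted by Benjamini-Hochberg over all 45037 probe sets, was under 0.05. Signals of different probe sets cannot be set against each other.

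PI3-kinases phosphorylate inositol lipids of cell membranes. Class I enzymes pair a catalytic with a regulatory subunit and make the lipid PIP3, which draws AKT and other proteins with pleckstrin homology domains to the membrane. Class IA enzymes respond mainly to tyrosine kinase receptors, and the class IB enzyme responds to G protein-coupled receptors through G protein βγ subunits. In platelets, the cells that megakaryocytes release, PI3-kinase β is known for its part in integrin signalling and γ for its part in the response to ADP.

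The targeted transcripts were low in their own knockdown. Cbfb averaged 9.19 ± 0.11 in CBFb_KD and 12.36 ± 0.12 in Control (SD, n = 3 each), a change of -3.17 (limma adjusted p = 2.6e-09). Rnf2, the gene of Ring1b, averaged 8.98 ± 0.08 in Ring1b_KD and 10.65 ± 0.08 in Control at its brightest probe set, a change of -1.67 (limma adjusted p = 2.11e-06). It also fell in Ring1b_KD at 1451519_at (-1.71) and 1448042_s_at (-1.02), whereas 1448041_at (0.07) and 1448043_x_at (-0.12) did not pass. Megakaryocyte markers were present, with Pf4 averaging 14.73 in CBFb_KD, 14.28 in Ring1b_KD and 14.41 in Control. Vwf was dim, at 5.90 in CBFb_KD, 4.77 in Ring1b_KD and 5.52 in Control, below the median level of all probe sets, 6.58. Of 8 megakaryocyte markers, 4 rose in CBFb_KD (Gp5, Gp9, Itga2b and Ppbp). The linear signal summed over all 8 ran from 35506 to 36054 in CBFb_KD, 16577 to 31359 in Ring1b_KD and 22466 to 28602 in Control. This sum includes Pf4, the brightest of the 8, which passed in none of the 3 comparisons. All sums here cover the whole list, with each gene at its brightest probe set. In Ring1b_KD, 1 of the 8, Vwf, fell. None of 8 granulocyte and monocyte markers passed in any of the 3 comparisons at an adjusted p under 0.05, and their sums were 1151 to 1427 in CBFb_KD, 1139 to 1389 in Ring1b_KD and 1152 to 1340 in Control. Of 6 mast cell and basophil markers, Hdc rose (1.11) and Ms4a2 fell (-1.92) in CBFb_KD, and Fcer1a and Hdc rose and Ms4a2 fell (-1.49) in Ring1b_KD, with sums of 2312 to 2863 in CBFb_KD, 3291 to 3786 in Ring1b_KD and 2057 to 3077 in Control. Of 4 erythroid markers, Alas2 and Epor rose in CBFb_KD, with sums of 4579 to 5439 in CBFb_KD, 3688 to 4620 in Ring1b_KD and 3625 to 4196 in Control. Of 6 lymphoid markers, Cd8a rose in Ring1b_KD, but not at its brightest probe set, where 0.31 did not pass. The lymphoid sums, which use that brightest probe set, were 623 to 691 in CBFb_KD, 701 to 725 in Ring1b_KD and 633 to 666 in Control. The part of these marker differences in the results below was not tested.

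The subunits moved gene by gene. The class IB catalytic subunit Pik3cg was higher in Ring1b_KD by 1.73 and 1.30 at its 2 probe sets, the class IA regulatory subunit Pik3r1 rose in CBFb_KD by 0.43 to 0.65 at the 3 of its 4 probe sets that passed, and the class IA catalytic subunit Pik3cb was lower in Ring1b_KD by a log2 fold change of -0.80. Over all 24 probe sets, 4 rose and none fell in CBFb_KD against Control, or 16.67%, while 9.65% of all probe sets passed, 4.90% higher and 4.76% lower. These 4 were 3 of Pik3r1 and 1422708_at of Pik3cg, a gene whose Control values also entered the choice of members. At an unadjusted p under 0.05 there were 10 of the 24. The share of all probe sets at that threshold was not computed, so this count has nothing to be set beside. The count of 4 was 1 without CBFb_KD array 2 or 3, 2 without Control array 3, and 7 without CBFb_KD array 1 or Ring1b_KD array 3. In Ring1b_KD against Control, 2 lay past the same threshold on the higher side and 1 on the lower, or 12.5%, beside 8.48% of all probe sets (3.77% higher and 4.71% lower), a comparison the choice of members used. That count was 6 without Ring1b_KD array 3 and 6 with arrays centred on their medians. Between CBFb_KD and Ring1b_KD 7 of 24 were past the threshold, or 29.17%, beside 13.4% of all (7.07% higher and 6.33% lower), 5 higher and 2 lower, and the 2 lower ones were those of Pik3cg, which count here as a description. The median log2 fold change of the 24 was 0.055 in CBFb_KD against Control and -0.069 in Ring1b_KD against Control, beside -0.013 and 0.005 over all probe sets. Both comparisons share the Control arrays. By mean level, 17 of the 24 were at or above the median of all probe sets and 7 below it. None of the 7 lay past the threshold in any of the 3 comparisons. When only probe sets at or above the median level were tested, 6 of the 17 members passed in CBFb_KD against Control, 5 higher and 1 lower, or 35.3% beside 21.6% of all those tested. The 5 include both probe sets of Pik3cg. In Ring1b_KD against Control, 3 of 17 lay past the threshold, or 17.6% beside 19.0%.

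**Figure D1:**
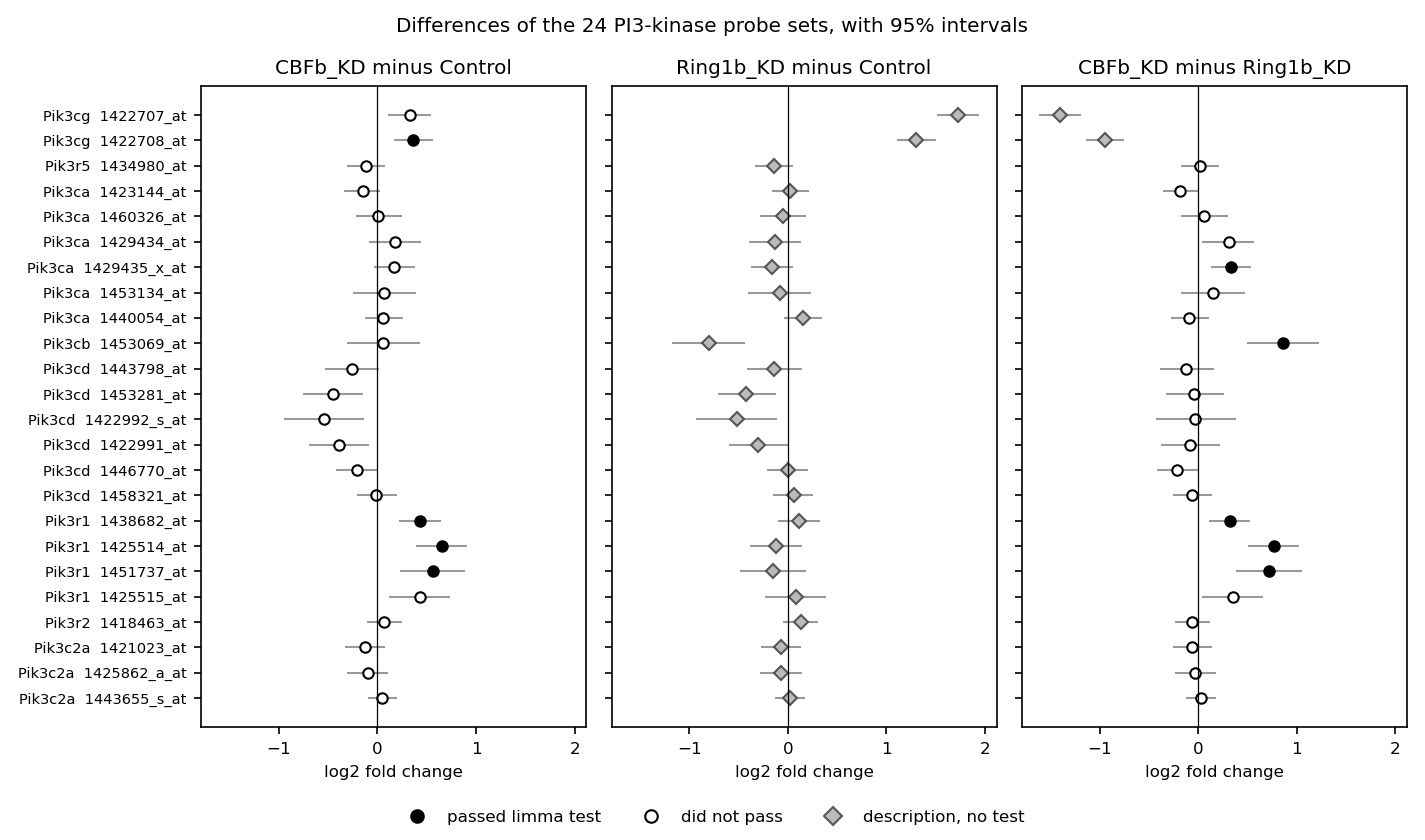
Log2 fold changes (horizontal axes) of the 24 PI3-kinase probe sets (rows) in 3 comparisons, with 95% intervals as bars. Filled circles passed limma at an adjusted p under 0.05, open circles did not, and grey diamonds are comparisons that the choice of members used. The 2 Pik3cg probe sets stand at 1.73 and 1.30 in Ring1b_KD minus Control, and the 4 Pik3r1 probe sets stand between 0.43 and 0.65 in CBFb_KD minus Control.

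Pik3cg encodes the class IB catalytic subunit γ, which is found mainly in blood cells. Its stretch before the transcription start is shown because Pik3cg had the largest difference among the members and to set it beside that of Pik3cb below. It covers 250 bases upstream of a start of the gene (RefSeq, GRCm38.p6, chr12:32208660-32208909, minus strand), 5′ to 3′, with no capitals because none of the 3 motifs searched was in it.
Pik3cg: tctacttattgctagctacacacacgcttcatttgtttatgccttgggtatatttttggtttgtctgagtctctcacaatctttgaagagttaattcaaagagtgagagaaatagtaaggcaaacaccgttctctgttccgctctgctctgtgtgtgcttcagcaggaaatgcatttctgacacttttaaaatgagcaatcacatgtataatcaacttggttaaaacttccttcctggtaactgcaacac
It holds 38.8% G and C and 3 CpG dinucleotides, against a median of 52.4% and 6 over the 32851 upstream stretches of the same length in RefSeq. The motifs were TGTGGT and TGCGGT, core sites of the RUNX proteins that CBFb partners, and GGGCGG, the GC box, each read on both strands. Either RUNX motif was in 18.6% of all stretches and in 3 of the 12 of the 8 members, 1 each of Pik3c2a, Pik3cb and Pik3cd. The GC box was in 32.7% of all stretches and in at least 1 stretch of every member but Pik3cg. A match is letters only, and these arrays hold no measure of binding.

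At the brighter probe set, 1422707_at, Pik3cg read 9.02, 9.27 and 9.11 in CBFb_KD, 10.62, 10.46 and 10.51 in Ring1b_KD, and 8.89, 8.88 and 8.63 in Control. All 3 Ring1b_KD arrays were above all others by over 1 log2 unit, and the CBFb_KD arrays lay just above the Control arrays without overlap. The means were 9.13 ± 0.13, 10.53 ± 0.08 and 8.80 ± 0.15 in CBFb_KD, Ring1b_KD and Control (SD, n = 3 each). Ring1b_KD minus Control was 1.73 (SE 0.098), or 3.31-fold, and 15 of the 45037 probe sets had a higher value. The second probe set, 1422708_at, read 7.40, 7.42 and 7.40 in CBFb_KD, 8.34, 8.33 and 8.38 in Ring1b_KD, and 7.13, 7.15 and 6.86 in Control. It gave the same order with no overlap between the groups. Its Ring1b_KD minus Control was 1.30 (SE 0.09), or 2.47-fold, with 34 probe sets higher. CBFb_KD minus Ring1b_KD was -1.40 and -0.94 at the 2 probe sets.

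In CBFb_KD, Pik3cg rose at 1 of its 2 probe sets. The difference from Control was 0.36 at 1422708_at (SE 0.09, limma adjusted p = 0.0223, higher in 3 of 3 arrays) and 0.33 at 1422707_at (SE 0.098, 95% interval 0.11 to 0.54, limma adjusted p = 0.057). These tests use the Control arrays that also entered the choice of Pik3cg. The call at 1422708_at was lost without CBFb_KD array 2 (limma adjusted p = 0.0764), CBFb_KD array 3 (0.0673) or Control array 3, where the difference was 0.27 (0.113). The value at 1422707_at passed without CBFb_KD array 1 (0.39, limma adjusted p = 0.0386), with the filter on dim probe sets (0.0363) and with 1 probe set per gene (0.0358), and the mean of both probe sets passed at 0.35 (0.0161). For the order of levels, Ring1b_KD lay beyond the spread of both other groups, whereas CBFb_KD and Control were close neighbours.

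Pik3r5 encodes the larger adaptor of the class IB enzyme, which couples it to G protein βγ subunits. Its probe set, 1434980_at, was dim and read 5.54, 5.41 and 5.51 in CBFb_KD, 5.51, 5.57 and 5.32 in Ring1b_KD, and 5.49, 5.63 and 5.70 in Control. The groups overlapped. The difference of CBFb_KD from Control was -0.12 (95% interval -0.31 to 0.08, limma adjusted p = 0.565), and Ring1b_KD minus Control was -0.14. The other class IB adaptor, Pik3r6, is no member but pairs with the same catalytic subunit, and fell in CBFb_KD at both of its probe sets. At 1443816_s_at it read 9.54, 9.82 and 9.72 in CBFb_KD, 10.31, 10.27 and 10.50 in Ring1b_KD, and 10.15, 10.19 and 10.04 in Control. Its difference from Control in CBFb_KD was -0.43 there (SE 0.095, limma adjusted p = 0.0117), which was -0.40 without Control array 2 and did not pass (limma adjusted p = 0.0573). At 1437956_at it was -0.59 (SE 0.145, limma adjusted p = 0.0229). Against Ring1b_KD the differences were -0.67 (limma adjusted p = 0.000675) and -0.91 (0.00146). Ring1b_KD minus Control was 0.23 (limma adjusted p = 0.165) and 0.32 (0.212). In Ring1b_KD the catalytic subunit was thus higher by 1.73 and 1.30 with both adaptors between -0.14 and 0.32.

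**Figure D2:**
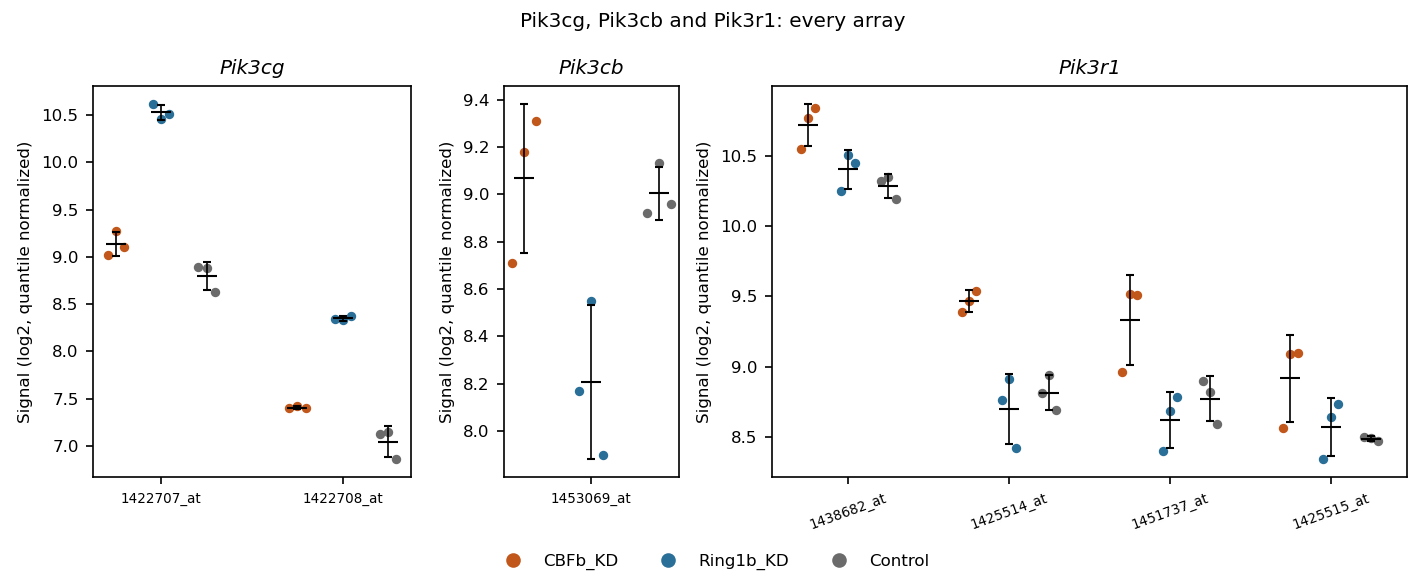
Log2 signal (vertical axes) of Pik3cg, Pik3cb and Pik3r1 on every array, by probe set (horizontal axes). Dots are arrays, and black bars are the mean ± SD of 3 arrays of CBFb_KD, Ring1b_KD and Control. The Ring1b_KD dots of Pik3cg lie above 10.4 at 1422707_at, those of Pik3cb lie below the other 6 arrays, and the CBFb_KD dots of Pik3r1 lie above Control at all 4 probe sets.

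Pik3cb encodes the class IA catalytic subunit β, which also answers to G protein βγ subunits. Its upstream stretch (RefSeq, GRCm38.p6, chr9:99140212-99140461, minus strand, 5′ to 3′) is set here against that of Pik3cg, since these 2 catalytic subunits differed from Control in opposite directions in Ring1b_KD. Capitals mark the GC box and, nearer the 5′ end, 1 match of TGCGGT on the opposite strand.
Pik3cb: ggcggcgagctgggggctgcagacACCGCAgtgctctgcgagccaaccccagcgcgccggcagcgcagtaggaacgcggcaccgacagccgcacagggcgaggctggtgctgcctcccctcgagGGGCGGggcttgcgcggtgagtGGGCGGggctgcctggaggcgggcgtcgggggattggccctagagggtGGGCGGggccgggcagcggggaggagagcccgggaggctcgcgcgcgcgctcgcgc
It holds 78.0% G and C, 32 CpG dinucleotides and 3 GC boxes, where the Pik3cg stretch above holds 38.8%, 3 and 0. A second Pik3cg stretch, not shown, at chr12:32208471-32208720, holds 44.0%, 5 and 0. Among members with smaller differences in Ring1b_KD, the stretch of Pik3r2 holds 68.4%, 29 and 1 and that of Pik3ca 61.6%, 19 and 1. That of Pik3c2a holds 71.2%, 25 and 2, and that of Pik3r5 holds 61.6%, 14 and 4. Whether these letters bear on the differences was not tested.

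The single probe set of Pik3cb, 1453069_at, read 8.71, 9.18 and 9.31 in CBFb_KD, 8.17, 8.55 and 7.90 in Ring1b_KD, and 8.92, 9.13 and 8.96 in Control. All Ring1b_KD arrays were below all others, and CBFb_KD overlapped Control. CBFb_KD minus Ring1b_KD was 0.86 (SE 0.17, 1.81-fold, limma adjusted p = 0.0054, higher in 3 of 3 arrays), and it passed in all 18 alternatives at 0.71 to 1.04. Ring1b_KD minus Control was -0.80 (SE 0.17, 1.74-fold), and 225 of the 45037 probe sets had a lower value. CBFb_KD minus Control was 0.06 (95% interval -0.31 to 0.43, limma adjusted p = 0.907). The levels of Ring1b_KD thus stood apart, whereas CBFb_KD and Control did not differ beyond their spread. With the brighter Pik3cg probe set, Pik3cb had a Pearson correlation of -0.8252 over the 9 arrays. That value describes 9 points in 3 groups that share the same arrays.

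Pik3cd encodes the class IA catalytic subunit δ, found mainly in white blood cells. Its 4 probe sets above the median level were lower on average in both knockdowns. None passed in CBFb_KD against Control, and the values of Ring1b_KD against Control are a description with no test. At 1453281_at it read 10.21, 10.31 and 10.13 in CBFb_KD, 10.09, 10.11 and 10.55 in Ring1b_KD, and 10.86, 10.74 and 10.40 in Control. The CBFb_KD arrays were below all Control arrays, and Ring1b_KD array 3 stood within the Control range. At 1422992_s_at it read 8.74, 9.03 and 8.85 in CBFb_KD, 8.62, 8.66 and 9.41 in Ring1b_KD, and 9.68, 9.36 and 9.21 in Control. Array 3 of Ring1b_KD was again high, as it was at the remaining bright probe sets, with 10.84 at 1443798_at and 9.01 at 1422991_at. CBFb_KD minus Control was -0.45 (limma adjusted p = 0.0594) at 1453281_at and -0.54 (0.102) at 1422992_s_at. At 1422991_at it was -0.39 (limma adjusted p = 0.115), and at 1443798_at -0.26 (0.289). Leaving out Ring1b_KD array 3, which enters through the shared variance, gave limma adjusted p = 0.0206, 0.0128 and 0.0336 for the first 3 of these with the same differences, and the first also passed without Control array 3 (-0.58, 0.0304). With only the 2 groups compared in the fit, these 3 gave limma adjusted p = 0.0358, 0.0245 and 0.0462. The filter on dim probe sets gave 0.0402 for the first. Ring1b_KD minus Control was -0.42, -0.52, -0.30 and -0.14 at the same probe sets in that order. The 2 dim probe sets, 1446770_at and 1458321_at, differed from Control by -0.21 and -0.01 in CBFb_KD, and the second by 0.06 in Ring1b_KD, where the first had equal means of 6.05. The first of them passed in CBFb_KD only without CBFb_KD array 1 (-0.32, limma adjusted p = 0.0227).

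Pik3ca encodes the class IA catalytic subunit α, which most tissues use. Its 5 probe sets above the median level averaged 7.98 to 9.24 in CBFb_KD, 7.81 to 9.41 in Ring1b_KD and 7.91 to 9.39 in Control. None of its 6 probe sets passed against Control in CBFb_KD, where the differences were -0.15 to 0.18, and those of Ring1b_KD from Control were -0.16 to 0.15. One difference between the knockdowns passed, at 1429435_x_at, a probe set whose type can also bind other transcripts. It read 8.21, 8.0 and 8.23 in CBFb_KD, 7.93, 7.81 and 7.70 in Ring1b_KD, and 7.88, 8.02 and 8.02 in Control. CBFb_KD minus Ring1b_KD was 0.33 (SE 0.095, limma adjusted p = 0.0363), with no overlap. That call was lost on leaving out any 1 of 6 arrays, CBFb_KD 1 or 3, Ring1b_KD 2 or 3, or Control 2 or 3, with differences of 0.28 to 0.33. The brightest probe set of the gene, 1423144_at, gave -0.18 (limma adjusted p = 0.215).

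**Figure D3:**
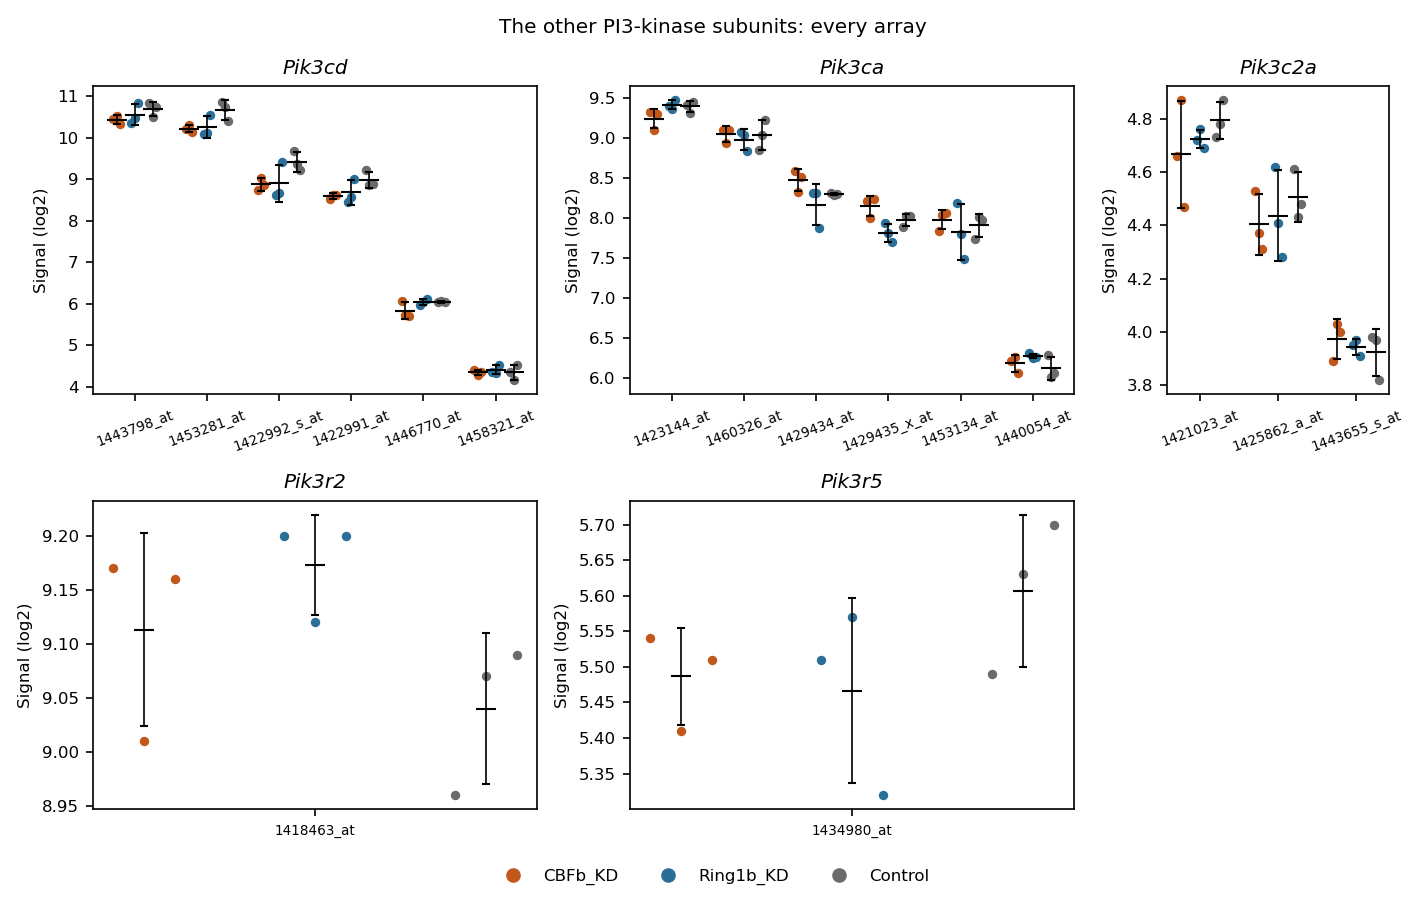
Log2 signal (vertical axes) of Pik3cd, Pik3ca, Pik3c2a, Pik3r2 and Pik3r5 on every array, by probe set (horizontal axes). Dots are arrays, and black bars are the mean ± SD of 3 arrays of CBFb_KD, Ring1b_KD and Control. Ring1b_KD array 3 sits at 9.41 in 1422992_s_at of Pik3cd, above the 8.62 and 8.66 of the other Ring1b_KD arrays, and the groups of Pik3r5 overlap.

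Pik3r1 encodes the class IA regulatory subunit α in long and short forms, which stabilise the catalytic subunits and hold them in check until a receptor is engaged. Its upstream stretches are shown because they belong to separate starts of the gene and because it is the member that rose at most of its probe sets in CBFb_KD. Both are from RefSeq, GRCm38.p6, minus strand, 5′ to 3′, with the GC box in capitals. The first lies at chr13:101768218-101768467 and the second at chr13:101692631-101692880.
Pik3r1 first: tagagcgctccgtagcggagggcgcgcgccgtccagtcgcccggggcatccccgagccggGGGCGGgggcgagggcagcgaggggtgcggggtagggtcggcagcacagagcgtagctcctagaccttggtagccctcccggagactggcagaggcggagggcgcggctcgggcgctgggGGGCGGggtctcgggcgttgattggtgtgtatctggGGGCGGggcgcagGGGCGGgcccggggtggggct
Pik3r1 second: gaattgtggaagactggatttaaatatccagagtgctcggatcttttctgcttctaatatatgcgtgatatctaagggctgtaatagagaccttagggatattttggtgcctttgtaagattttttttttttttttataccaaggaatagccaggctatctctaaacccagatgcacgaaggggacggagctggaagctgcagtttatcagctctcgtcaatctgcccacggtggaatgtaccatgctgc
The first holds 76.4% G and C, 30 CpG dinucleotides and 4 GC boxes, and the second 42.4%, 6 and 0. The annotation used here does not tie a probe set to a start.

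At 1425514_at, Pik3r1 read 9.39, 9.47 and 9.54 in CBFb_KD, 8.76, 8.91 and 8.42 in Ring1b_KD, and 8.81, 8.94 and 8.69 in Control. All CBFb_KD arrays were above all others, and Ring1b_KD overlapped Control. The difference of CBFb_KD from Control was 0.65 (SE 0.118, 1.57-fold, limma adjusted p = 0.00425) and passed in all 16 alternatives that gave a value, at 0.59 to 0.71. CBFb_KD minus Ring1b_KD was 0.77 (SE 0.118, limma adjusted p = 0.00116). The brightest probe set, 1438682_at, read 10.55, 10.77 and 10.84 in CBFb_KD, 10.25, 10.51 and 10.45 in Ring1b_KD, and 10.32, 10.35 and 10.19 in Control. Here too CBFb_KD was above all other arrays. CBFb_KD minus Control was 0.43 (SE 0.097, limma adjusted p = 0.0139), which did not pass without CBFb_KD array 2 (0.41, 0.0586), CBFb_KD array 3 (0.37, 0.0695) or Control array 3 (0.38, 0.0765). Against Ring1b_KD it was 0.32 (limma adjusted p = 0.0494), a call lost on leaving out any 1 array other than CBFb_KD 1 or Ring1b_KD 2, at 0.24 to 0.34.

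The other Pik3r1 probe sets gave differences of the same sign. At 1451737_at the gene read 8.96, 9.52 and 9.51 in CBFb_KD, 8.40, 8.68 and 8.78 in Ring1b_KD, and 8.90, 8.82 and 8.59 in Control. CBFb_KD array 1 was low but still above every other array. This put CBFb_KD minus Control at 0.56 (SE 0.153, limma adjusted p = 0.0359), and CBFb_KD minus Ring1b_KD was 0.72 (limma adjusted p = 0.00839). The call against Control was lost without CBFb_KD array 2 (0.47, 0.15) or 3 (0.47, 0.143), Ring1b_KD array 2 (0.56, 0.0532), or Control array 1 (0.63, 0.0594), 2 (0.59, 0.0836) or 3 (0.47, 0.162). At 1425515_at it read 8.56, 9.09 and 9.10 in CBFb_KD, 8.34, 8.64 and 8.73 in Ring1b_KD, and 8.50, 8.49 and 8.47 in Control. CBFb_KD array 1 again stood below the other CBFb_KD arrays. The difference from Control in CBFb_KD was 0.43 (SE 0.143, limma adjusted p = 0.0856). It passed with the replicate number as a block (0.43, limma adjusted p = 0.0294) and without CBFb_KD array 1 (0.61, 0.00515). Against Ring1b_KD it was 0.35 (limma adjusted p = 0.138), and without CBFb_KD array 1 it was 0.53 (0.0101). Ring1b_KD minus Control was -0.12, 0.11, -0.15 and 0.08 at the 4 probe sets in the order given.

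Pik3r2 encodes the class IA regulatory subunit β. Its probe set, 1418463_at, read 9.17, 9.01 and 9.16 in CBFb_KD, 9.20, 9.12 and 9.20 in Ring1b_KD, and 8.96, 9.07 and 9.09 in Control. All values lay within a narrow range, and CBFb_KD overlapped Control. The difference of CBFb_KD from Control was 0.07 (95% interval -0.11 to 0.25, limma adjusted p = 0.734), CBFb_KD minus Ring1b_KD was -0.06 (limma adjusted p = 0.709), and Ring1b_KD minus Control was 0.13. A probe set annotated to both Ifi30 and Pik3r2 was left out.

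Pik3c2a encodes a class II enzyme, which acts in membrane traffic and endocytosis. Its 3 probe sets were all dim, with means of 3.97 to 4.67 in CBFb_KD, 3.94 to 4.73 in Ring1b_KD and 3.93 to 4.79 in Control. CBFb_KD minus Control was -0.13 to 0.05, and Ring1b_KD minus Control was -0.07 to 0.02. None passed against Control in CBFb_KD or between the knockdowns. At such signals a difference in the transcript may not be measurable on the array.

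Across the 24 probe sets, the CBFb_KD arrays did not overlap the Control arrays at 7 on the higher and 3 on the lower side, or 41.67%, beside 26.2% of all probe sets, 11.7% higher and 14.5% lower. The 7 were both of Pik3cg, whose Control values also entered the choice, all 4 of Pik3r1 and 1429434_at of Pik3ca, and the 3 were of Pik3cd. Ring1b_KD arrays did not overlap Control at 3 on the higher side, both of Pik3cg and that of Pik3r2, and 1 on the lower, that of Pik3cb. This is 16.67%, beside 29.4% of all probe sets (14.1% higher and 15.3% lower), in the comparison that the choice used.

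The 5 genes whose probe sets were most like that of Pik3cg over the 9 arrays, by Pearson correlation with 1422707_at, were Tnfrsf9 (0.9933), Ap1m1 (0.9922), Dctn4 (0.9862), Cnot6l (0.983) and Tmem181a (0.9827). The second Pik3cg probe set had 0.9905. The points share the same arrays in 3 groups, so these values are descriptions. Ring1b_KD minus Control was 3.54 for Tnfrsf9, a receptor of the tumour necrosis factor family, 1.02 for Cnot6l and 0.41 to 0.73 for the other 3.

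Of the pathway around the subunits, 108 genes in 6 lists were measured. In CBFb_KD against Control 35 passed at 1 or more probe sets, 26 higher and 9 lower, or 32.4% beside 14.9% of all genes, with 7.66% of all genes higher and 7.27% lower. The count was 23 without CBFb_KD array 2. In Ring1b_KD against Control 26 passed, 17 higher and 10 lower with Rictor in both directions, or 24.1% beside 14.1% of all genes, 6.11% higher and 8.15% lower. That count was 17 without Ring1b_KD array 2, 15 without Control array 2 and 12 without Control array 3, and with arrays centred on their medians 9 genes were higher and 22 lower. These genes had 2.35 probe sets each, beside 1.92 over all genes, and 89.8% had a probe set at or above the median level, beside 63.7%. With 1 probe set per gene, the counts were 29 in CBFb_KD, or 26.9% beside 15.3% of all genes, and 27 of 108 in Ring1b_KD, beside 12.2% of all genes. With only probe sets at or above the median level, 31.5% of the 108 passed in CBFb_KD and 29.6% in Ring1b_KD. Of all genes with such a probe set, 26.5% and 25.3% passed. The 108 include genes without such a probe set, which could not pass. These shares therefore have unlike bases, and those of the pathway are the lower for it.

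Among 7 other PI3-kinase genes, Pik3r3, another class IA regulatory subunit, rose in CBFb_KD by 0.75 (limma adjusted p = 0.012) and in Ring1b_KD by 0.95 (0.00437), with 7.32, 7.49 and 7.31 in CBFb_KD, 7.48, 7.52 and 7.75 in Ring1b_KD, and 6.96, 6.76 and 6.17 in Control. Without CBFb_KD array 2 it was 0.69 in CBFb_KD and did not pass (limma adjusted p = 0.0547). The only other gene of this list to pass in a comparison with Control was Pik3r6, above. Pik3ip1, an inhibitor of the class I enzymes, passed between the knockdowns at 1428332_at, with CBFb_KD minus Ring1b_KD at 0.40 (limma adjusted p = 0.0422). Its other probe set, 1439087_a_at, gave 0.23 with overlapping arrays and did not pass (limma adjusted p = 0.193). No gene of this list was higher in that comparison with values as deposited or with 2-group fits. The same held without CBFb_KD array 2, Ring1b_KD array 2 or 3, or Control array 1. Of 18 phosphoinositide phosphatases, 4 rose and 2 fell in CBFb_KD, and 3 rose and 3 fell in Ring1b_KD. Inpp5d, the phosphatase SHIP, which removes a phosphate from PIP3, rose in CBFb_KD by 1.16 (limma adjusted p = 9.31e-05), and the myotubularin Mtm1 fell by 1.40 at 1434278_at (0.000258). Mtm1 also fell there at 1454904_at (-1.18, limma adjusted p = 0.00112), whereas the dim 1416934_at gave 0.19 and did not pass. In Ring1b_KD, Mtm1 fell at 1434278_at (-0.60, limma adjusted p = 0.0368), with arrays that overlapped Control. The count in Ring1b_KD, 6 in all, was 3 without Ring1b_KD array 2, 4 without Ring1b_KD array 1 or Control array 2, and 3 without Control array 3. It was 9 without CBFb_KD array 1.

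Of 11 other phosphoinositide kinases, 4 rose and 1 fell in CBFb_KD, and 2 rose and 1 fell in Ring1b_KD. Pip4k2c rose in CBFb_KD by 0.88 (limma adjusted p = 8.38e-05). Pi4k2b, a kinase that starts the route to the substrate of class I enzymes, fell in Ring1b_KD at all 3 of its probe sets, with log2 fold changes of -2.06 at 1420411_a_at (limma adjusted p = 5.52e-05) and of -1.35 and -1.47 at the others. The list's count of 3 in Ring1b_KD held 2 genes without any 1 of CBFb_KD 2 and 3, Ring1b_KD 1 and 2, and Control 2 and 3, and with arrays centred on their medians 3 were lower and none higher. Of 24 upstream activators and adaptors, 5 rose and 2 fell in CBFb_KD, and 3 rose in Ring1b_KD. Gnb4, a G protein β subunit, rose in CBFb_KD at all 3 of its probe sets, by 0.51 at 1419470_at (limma adjusted p = 0.00111) and by 0.54 and 0.64 at the others. The 7 of CBFb_KD were 4 without CBFb_KD array 2 or 3 or Control array 1 or 2, and 3 without Control array 3. The 3 of Ring1b_KD were 1 without CBFb_KD array 3, Ring1b_KD array 2 or 3, or any Control array, and with centred arrays 4 were lower and none higher.

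Of 28 AKT and mTOR genes, 6 rose and 2 fell in CBFb_KD, and 7 rose and 5 fell in Ring1b_KD. Deptor, an inhibitor of mTOR, rose in CBFb_KD at 3 of its 6 probe sets, by 0.85 at 1428622_at (limma adjusted p = 0.000496), with all 6 between 0.0 and 0.91. Sgk3, a kinase related to AKT, rose there at all 3 of its probe sets, by 0.65 at 1420919_at (limma adjusted p = 0.000665). In Ring1b_KD, Eif4ebp2 rose at 2 of its 5 probe sets, by 1.04 at 1417084_at (limma adjusted p = 0.000914), with all 5 between -0.18 and 1.04. Rptor rose there at 1 of its 3, by 0.65 (limma adjusted p = 0.000638). The same probe set, 1434619_at, rose in CBFb_KD by 0.52 (limma adjusted p = 0.00162). With the mean of its probe sets Rptor passed in neither, at 0.41 in Ring1b_KD (limma adjusted p = 0.0533) and 0.33 in CBFb_KD (0.104). Gsk3b, a kinase that AKT inhibits, fell in Ring1b_KD at 3 of its 6 probe sets, with log2 fold changes of -0.71 at 1437001_at (limma adjusted p = 0.000653) and of -0.50 and -0.32 at the other 2. All 6 lay between -0.71 and 0.24, and between the knockdowns Gsk3b passed in both directions. The 8 of CBFb_KD were 5 without Control array 1 or 2, 4 without Control array 3 and 3 without CBFb_KD array 2. The 11 of Ring1b_KD were 7 without Control array 2 and 5 without Control array 3, and with centred arrays 5 were higher and 9 lower. Of 20 PIP3-binding effectors, 6 rose and 1 fell in CBFb_KD, while 1 rose and 1 fell in Ring1b_KD. Btk, a tyrosine kinase recruited by PIP3, rose in CBFb_KD by 0.91 (limma adjusted p = 0.000506), and Cyth4, an exchange factor for ARF proteins, by 0.89 (0.000813). The 2 of Ring1b_KD, Vav1 lower and Cyth3 higher, were 0 without Control array 2 or 3 and 1 without Ring1b_KD array 1 or 3, and with centred arrays 3 were lower and none higher.

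**Figure D4:**
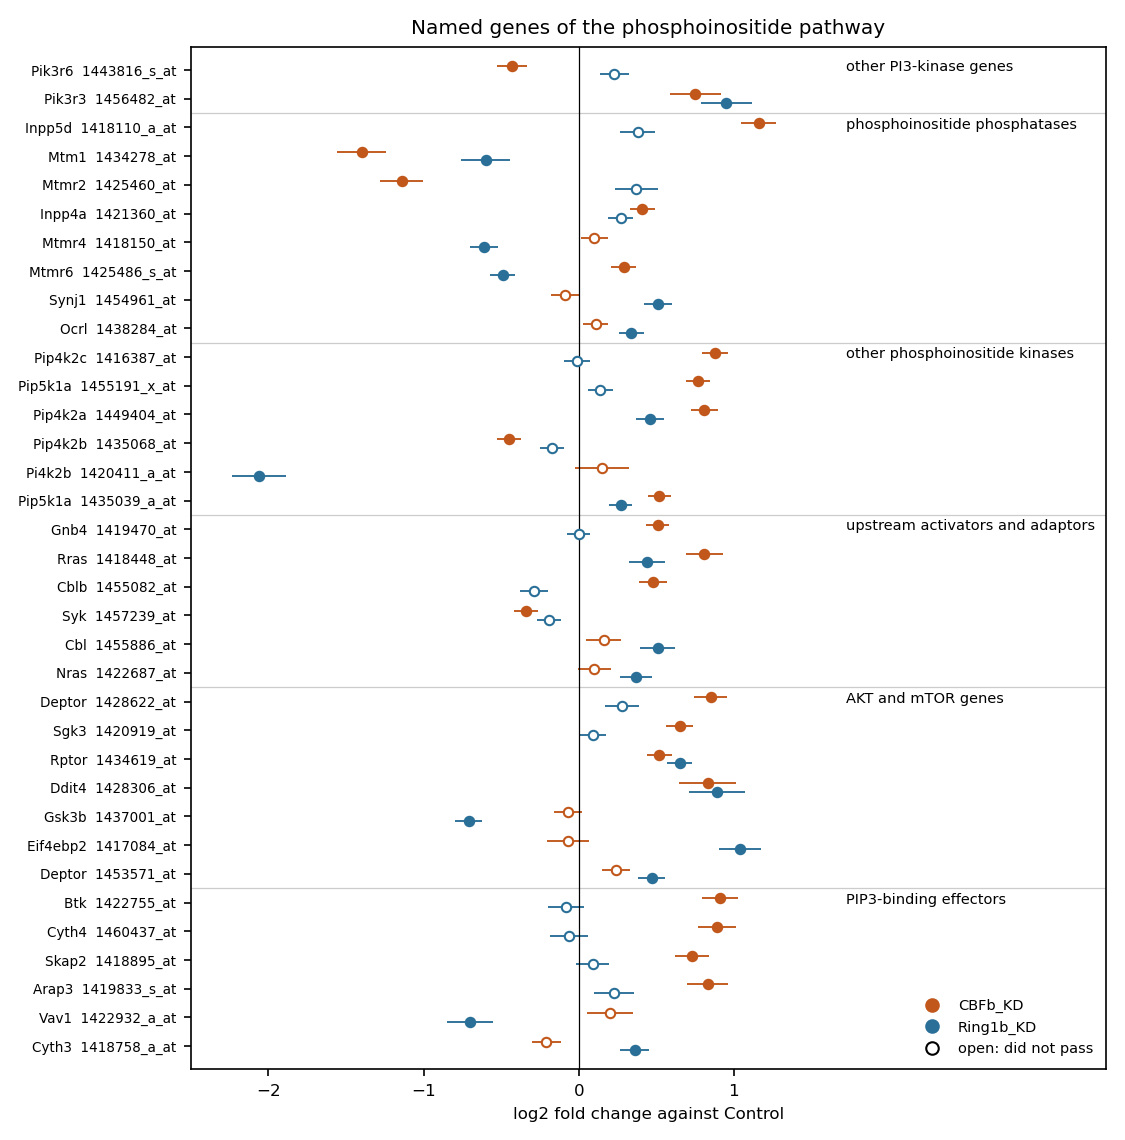
Log2 fold changes against Control (horizontal axis) of the named pathway genes (rows, by list), in CBFb_KD and Ring1b_KD, with standard errors as bars. Filled dots passed limma at an adjusted p under 0.05 and open dots did not. Pi4k2b stands at -2.06 in Ring1b_KD, and Inpp5d at 1.16 and Mtm1 at -1.40 in CBFb_KD.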

How the data were processed

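Values were read from the authors' deposited table, which holds log2 signals for 45101 probe sets on 9 arrays, on a log2 scale as judged from their range of 3.227 to 15.355. Per the labels' protocols, total RNA was copied from an oligo-dT primer and labelled with biotin by in vitro transcription. How the authors corrected, summarised and normalized these signals is not stated in the sources used here. Because oligo-dT priming favours the 3′ part of a transcript and short probes see only their own stretch, probe sets of 1 gene can differ. Probe summaries also compress differences of dim signals. Precision is set by 3 arrays per group.

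The array medians ran from 6.514 to 6.651, a range of 0.137 that exceeded the limit of 0.1, so arrays were quantile normalized. After 64 control probe sets were left out, limma 3.58.1 in R 4.3.3 (lmFit, eBayes with a variance trend) was fitted to all 9 arrays and 45037 probe sets, with Benjamini-Hochberg adjustment over all of them. There were 6 residual and 6.186 prior degrees of freedom. The same steps were tested on simulated data. Names came from the platform annotation: 34945 probe sets had 1 symbol, 932 several and 9160 none, and 34741 of the first matched RefSeq by Entrez ID. Promoter stretches came from RefSeq, GRCm38.p6, and were searched for TGCGGT after a first search with TGTGGC, which is not a usual RUNX core. Tables and figures used pandas 2.3.3 and matplotlib 3.10.9.

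Same-numbered arrays of CBFb_KD and Control deviated together (correlations of 0.121, 0.281 and 0.137), so the numbers may pair those groups. CBFb_KD array 1 and Control array 3, of unlike numbers, had 0.126. The reported fit used no pairing, so its p-values ignore any there was, and the replicate block was run as an alternative. Over all 9 same-numbered pairs the range was -0.145 to 0.281. There were 18 alternatives: values as deposited, centring on medians, a filter on dim probe sets, 1 probe set or the mean per gene, robust or untrended variance, 2-group fits, the replicate block, and leaving out each of 9 arrays. The members, lists, tests and alternatives were chosen with earlier results of these data known. Named genes are all members, per pathway list up to 4 genes that passed by smallest adjusted p in each comparison with Control (all shown in the plot of pathway genes), Pik3ip1 (named after its values were seen), the 5 genes most like Pik3cg, and Cbfb and Rnf2.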

Additional observations from a re-analysis of the deposited data

How the results depend on the processing

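Under the 18 alternatives no called value changed sign. For members in CBFb_KD against Control, 366 of 393 alternative values stayed on their side of the threshold, whatever the sign of small uncalled differences, 12 no longer passed and 15 newly passed. Between CBFb_KD and Ring1b_KD 369 of 393 stayed on their side or, for Pik3cg, moved by less than 1 SD. For pathway genes 376 of 384 stayed on their side in CBFb_KD and 240 of 293 in Ring1b_KD. The 4 member probe sets called in CBFb_KD against Control became 2 of 8 genes with 1 probe set per gene or with gene means, 7 with only the 2 groups compared in the fit, and 1 to 7 without single arrays: 7 without CBFb_KD array 1 or Ring1b_KD array 3, 1 without CBFb_KD array 2 or 3, and 2 without Control array 3. Over all probe sets, CBFb_KD against Control gave 4347 calls, 2792 with 1 probe set per gene, 2578 with gene means and 2372 to 4734 without single arrays. Ring1b_KD against Control gave 3821, 2227, 1780 and 1695 to 4321 in the same order, and CBFb_KD against Ring1b_KD gave 6035, 3532, 3073 and 3971 to 6119. The gene-level settings test fewer features, and the cause of the other shifts was not tested. With arrays centred on their medians, 749 probe sets were called higher and 4204 lower in Ring1b_KD against Control, where the reported setting gave 1698 and 2123. CBFb_KD against Ring1b_KD gave 4600 and 1038, where it gave 3186 and 2849. Pik3cg in Ring1b_KD minus Control was 1.55 at 1422707_at with that centring. With the replicate block the 3 counts were 5000, 4333 and 6675, and of the member calls in CBFb_KD against Control it changed that of Pik3r1 1425515_at (0.43, limma adjusted p = 0.0294) and no other. In Ring1b_KD against Control the block ended the call of Pip5k1a 1435039_a_at (0.27, limma adjusted p = 0.0527). Of the arrays, 8 of 9 correlated best with an array of their own number, but of the 6 same-numbered pairs with Ring1b_KD 1 was over 0.1 (range -0.145 to 0.156), so the numbers were not taken to pair that group. Dim signals limit Pik3c2a and Pik3r5. Gene-level settings give a value only for a gene's brightest probe set, and the filter on dim probe sets gives none for the 7 members below the median level.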
